A study of Rattus norvegicus with 8 samples.

Results

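Genes for voltage-gated potassium (Kv) channels and their partner subunits were picked by name, as the rows whose symbol begins with Kcna, Kcnb, Kcnc, Kcnd, Kcnf, Kcng, Kcnh, Kcnip, Kcnq, Kcns or Kcnv and whose counts summed to at least 80 over the 8 libraries. Of 16871 gene symbols in the count table, 46 had such a name and 40 met the count minimum. They were 6 Kv1 genes, 2 Kv beta genes, 2 Kv2 genes, 4 Kv3 genes, 3 Kv4 genes, 4 KChIP genes, 4 Kv7 genes, 7 Kv10 to Kv12 genes and 8 modifier subunit genes. The lowest inside the minimum were Kcns2, with 87 counts in all, and Kcnq1, with 104. The 6 left out were Kcnab3 with 46, Kcna5 with 38, Kcnv2 with 27, Kcnh6 with 18, Kcna10 with 14 and Kcns1 with 11. All 40 passed edgeR's filter on low counts and were tested among 11372 genes.

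The libraries hold BrU-labelled RNA, meaning RNA that living cells made while bromouridine, a base analogue, was in the medium for 30 min. The cells were co-cultures of cortical and hippocampal neurons from newborn (P1-P2) Sprague Dawley rat pups, although the sample titles name the hippocampus alone. Each group got a first treatment for 24 h from day 14 in vitro, a washout of 48 h and a second treatment for 4 h on day 17, the last part of it with 2 mM BrU. TT cultures got 1 µM tetrodotoxin (TTX, a toxin that blocks voltage-gated sodium channels and so action potentials) both times, HT cultures got vehicle (water) and then TTX, TH cultures got TTX and then vehicle, and HH cultures got vehicle both times. Each group had 2 libraries. The design asks whether a past period of silence alters transcription during a later one.

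Kv channels open when the membrane is depolarized and let potassium out of the cell, which ends action potentials and sets how readily a neuron fires again. A channel is a ring of pore subunits. Kv1, Kv2, Kv3, Kv4, Kv7 and Kv10 to Kv12 subunits build pores, Kv beta subunits dock to Kv1 pores from the inside, KChIPs are calcium-binding partners of Kv4, and modifier subunits form no channel alone but join Kv2 subunits and alter them. In neurons Kv1 works mainly in axons, Kv2 on the cell body, Kv4 in dendrites, and Kv7 carries the M current, a slow brake on repeated firing.

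Totals ran from 3489176 to 4959887 counts per library. Of 6 neuron markers all were detected, with summed levels of 3649 to 4388 CPM (counts scaled to a fixed library total) in the 4 libraries given the second TTX and 3795 to 5835 CPM in the 4 given vehicle. The 5835 CPM belonged to HH replicate 1, and the other libraries given vehicle had 3795 to 4507 CPM. Glia were present too: 8 of 8 astrocyte markers (summed 1331 to 2007 CPM) and 11 of 11 oligodendrocyte lineage markers had counts, while 6 microglia markers summed to at most 14.0 CPM and Pvalb, a marker of fast-spiking interneurons, had at most 0.782 CPM. HH replicate 1 stood apart. Each of 11 activity genes, such as Fos, Arc and Bdnf, was highest in it, and their summed level was 1399 CPM there, against 406 to 584 CPM in the other 7 libraries. The labels leave unsaid whether replicates were separate cultures, and p-values therefore reflect the spread of these libraries, which may be technical. In bulk RNA, fewer cells of a type and less RNA per cell cannot be told apart. CPM is not scaled to gene length, so levels are compared between libraries of the same gene and not between genes.

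No Kv gene passed an adjusted p of 0.05 (edgeR's quasi-likelihood test with Benjamini-Hochberg adjustment over 11372 genes) in any of 7 comparisons. These were the second TTX in each history (HT against HH, TT against TH), the TTX history under each second treatment (TH against HH, TT against HT), the average of each pair, and the interaction. The share of all genes tested that passed was 0.0% in each, so this is no result about the Kv genes. At an unadjusted p under 0.05, Kv genes numbered 4 in HT against HH (6.49% of all genes), 0 in TT against TH (2.64%), 3 in the second TTX averaged over history (6.94%), 3 in TH against HH (4.08%), 2 of 40 in TT against HT (2.35%), 5 in the averaged history (5.75%) and 1 in the interaction (1.64%). DESeq2 and limma-voom also called 0 Kv genes in each comparison, though DESeq2 called 11 other genes in the averaged second TTX. The standard errors of the averaged second TTX had a median of 0.17 on the log2 scale, from 0.087 to 0.47, so that small changes of single genes were not detectable.

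As a description of the 40 genes, 34 lay below 0 in the second TTX averaged over history, with a median log2 fold change of -0.14, beside 50.3% of all genes tested and an overall median of -0.0011. In TT against TH, 34 of 40 lay below 0 (49.1% of all genes), with a median of -0.14. In HT against HH, 27 lay below 0 (49.8% of all genes), with a median of -0.18. Below 0 in both histories were 22 of 40, beside 28.3% of all genes. The size rested partly on single libraries. Without HH replicate 1, 26 genes lay below 0 in HT against HH and the median was -0.042. Without HT replicate 2 the HT against HH median was -0.093. TT against TH had 26 genes below 0 (49.6% of all genes) and a median of -0.10 without TT replicate 2. It had 39 (50.8%) and a median of -0.18 without TT replicate 1. The averaged second TTX had 29 below 0 (50.7%) and a median of -0.10 without TT replicate 2. For the TTX history, 29 of 40 lay below 0 in the average (50.0% of all genes), with a median of -0.19. The count was 26 for TH against HH (49.8%), with a median of -0.20. It was 29 for TT against HT (49.9%), with a median of -0.16. Without HH replicate 1 the averaged history had a median of -0.090, without HT replicate 1 one of -0.093, without TH replicate 2 one of -0.11, and with both HH replicate 1 and HT replicate 1 left out one of -0.031 with 23 genes below 0. The TH against HH median was -0.094 without HH replicate 1 and -0.12 without TH replicate 2, and TT against HT had 21 genes below 0 and a median of -0.0051 without HT replicate 1.

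**Figure D1:**
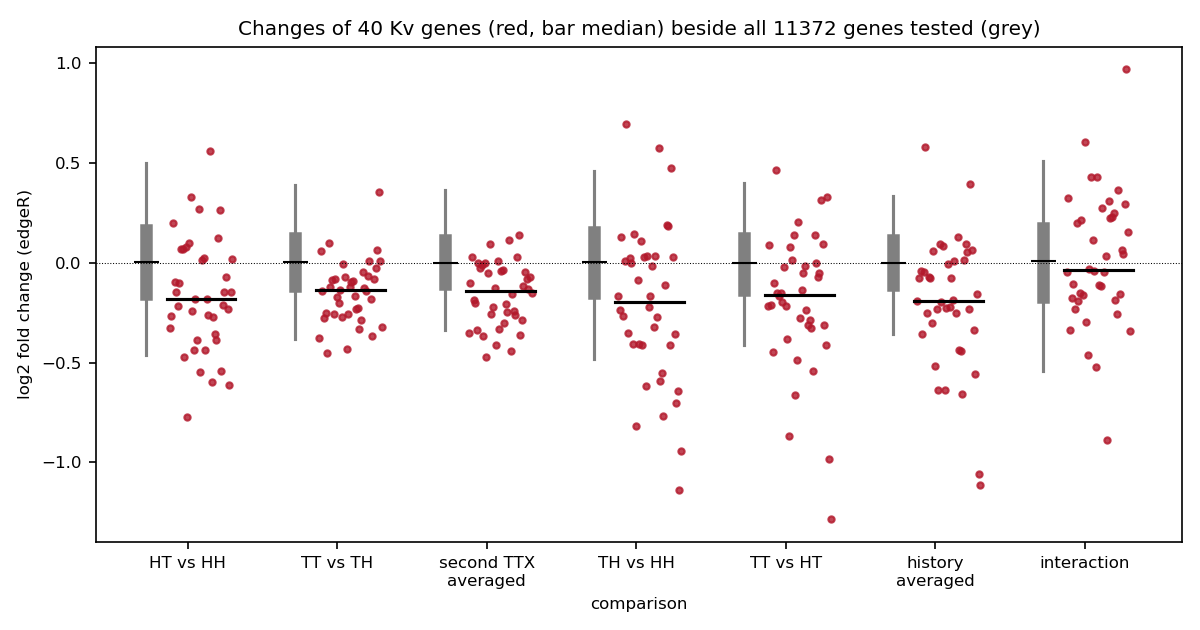
Log2 fold changes (y axis) of the 40 Kv genes in 7 comparisons (x axis). Red points are Kv genes, the bar beside them is their median, and the grey box and line give the 25th to 75th and the 5th to 95th percentiles of all 11372 genes tested with their median. The red medians lie below 0 in each comparison, at -0.14 for the averaged second TTX and -0.19 for the averaged history, and most points lie within the spread of all genes. For the interaction the median is -0.038, with 21 of 40 points below 0 (48.8% of all genes), and it was 0.033 with limma-voom.

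With 2 libraries a group, the values of many genes do not overlap between groups. Lower without overlap were 8 Kv genes in HT against HH (16.7% of all genes), 10 in TT against TH (14.1%), 7 Kv genes in TH against HH (13.4%) and 10 Kv genes in TT against HT (16.2%). Higher without overlap were 2 in HT against HH (18.6% of all genes), 0 in TT against TH (15.9%), 4 Kv genes in TH against HH (16.7%) and 4 Kv genes in TT against HT (18.2%).

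Replicates of a group differed widely in several Kv genes. HH replicate 1 held the highest of the 8 values for 18 of 40 genes, beside 21.6% of all genes, and the lowest for 6 (22.3% of all genes). Replicate 1 was over 1.5 times replicate 2 in 1 Kv gene in TT (4.37% of all genes), 8 Kv genes in HT (4.45%), 4 in TH (6.38%) and 11 in HH (7.67%). The opposite, replicate 2 over 1.5 times replicate 1, was seen for 0 Kv genes in TT (4.09% of all genes), 1 in HT (7.03%), 0 in TH (4.32%) and 4 in HH (10.7%). In 11 Kv genes both HT replicate 1 and HH replicate 1 lay above the other 6 libraries, beside 9.44% of all genes: Kcnab1, Kcnb2, Kcnc2, Kcnf1, Kcng2, Kcnh5, Kcnh7, Kcnq3, Kcnq5, Kcns3 and Kcnv1. HT replicate 1 was also the second highest library in summed activity genes, at 584 CPM. Whether the activity genes and these Kv genes are linked was not tested, and the labels do not say whether the 2 libraries share a culture.

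**Figure D2:**
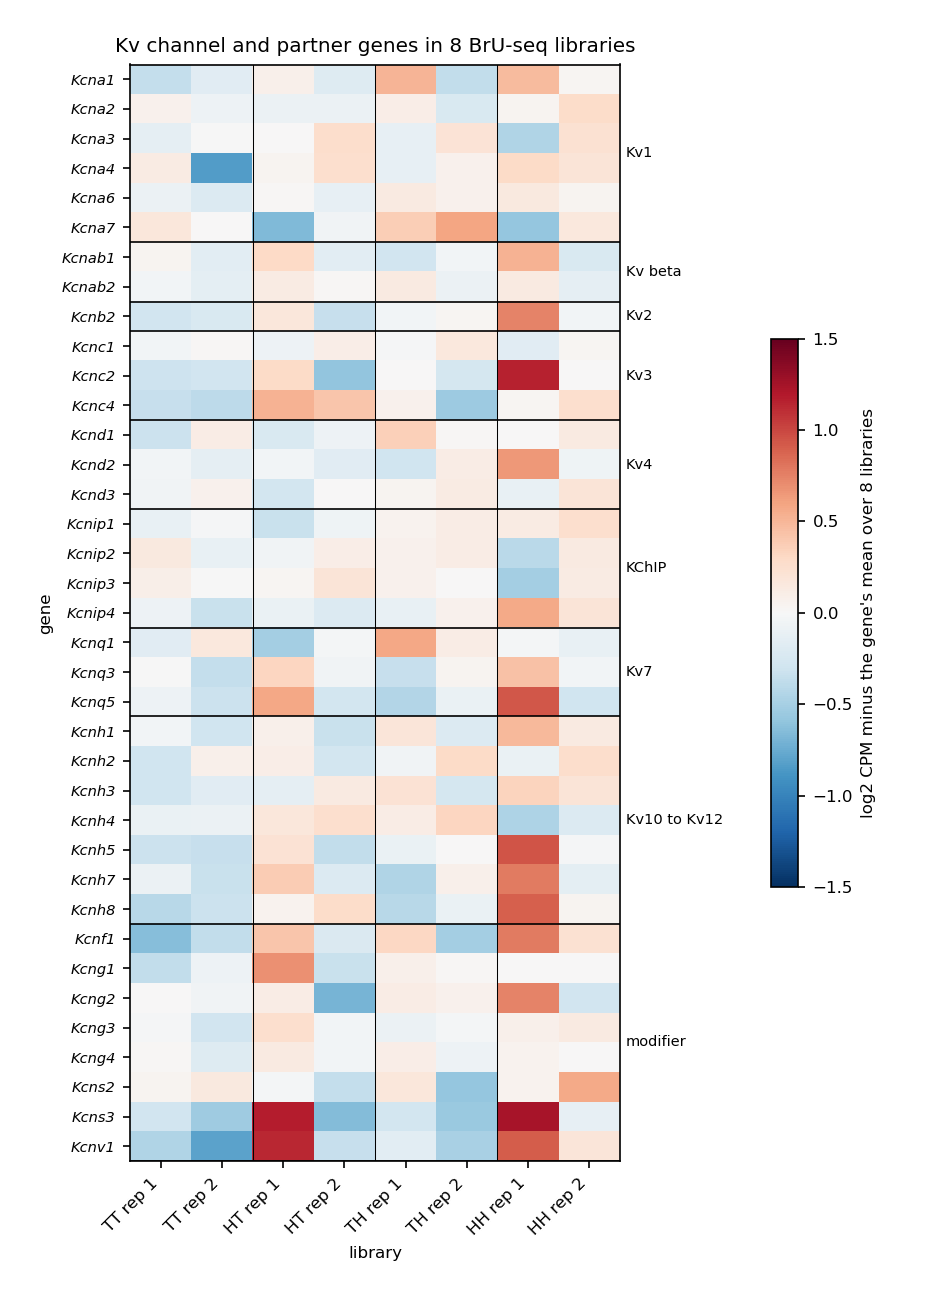
Each row is a Kv gene, grouped by subfamily, without those not reported here, and each column a library. Colour gives log2 CPM minus the gene's mean over the 8 libraries, red above and blue below. HH replicate 1 has the reddest column, with median deviations of 0.49 in Kv10 to Kv12 genes and 0.41 in modifier genes, and Kcns3, Kcnv1 and Kcnq5 are red in HT replicate 1 as well.

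**Figure D3:**
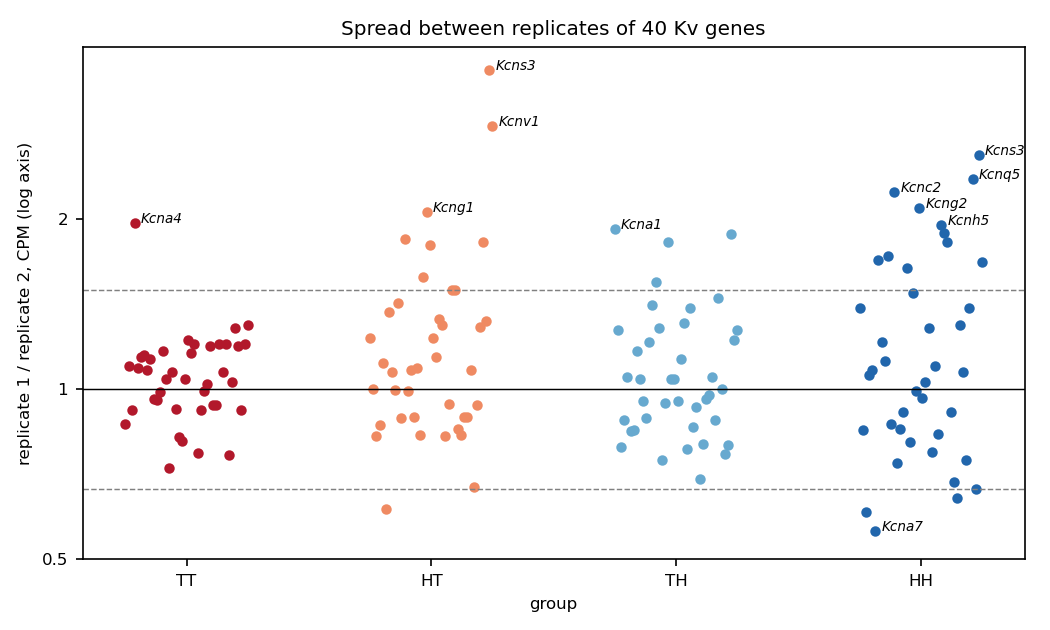
CPM of replicate 1 over replicate 2 (y axis, log scale) for the 40 Kv genes in each group (x axis), with dashed lines at 1.5 times in either direction. TT has 1 point above the upper line, HT 8, TH 4 and HH 11, and the highest is Kcns3 in HT, at 3.67.

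Promoter windows, from 250 bases before to 50 after the annotated start, are shown for 3 of the genes that were lower without overlap in both comparisons of 1 treatment. Sequences are RefSeq's, build GRCr8, whereas the counts were made on rn6. Of the 40 Kv genes, 25 matched by symbol, with 28 windows, and Kcnv1, the remaining such gene, did not. Capitals mark the GC box (GGGCGG, either strand) and the half-site of the cyclic AMP response element (TGACG, either strand).
Kcnip1, first entry, chr10:19092976-19093275, minus strand: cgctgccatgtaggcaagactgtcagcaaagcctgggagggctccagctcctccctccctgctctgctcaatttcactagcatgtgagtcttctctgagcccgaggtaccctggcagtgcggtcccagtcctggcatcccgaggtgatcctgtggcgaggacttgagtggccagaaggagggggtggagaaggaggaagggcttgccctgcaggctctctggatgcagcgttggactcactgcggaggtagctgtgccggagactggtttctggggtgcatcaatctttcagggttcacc
Kcnip1, second entry, chr10:18940760-18941059, minus strand: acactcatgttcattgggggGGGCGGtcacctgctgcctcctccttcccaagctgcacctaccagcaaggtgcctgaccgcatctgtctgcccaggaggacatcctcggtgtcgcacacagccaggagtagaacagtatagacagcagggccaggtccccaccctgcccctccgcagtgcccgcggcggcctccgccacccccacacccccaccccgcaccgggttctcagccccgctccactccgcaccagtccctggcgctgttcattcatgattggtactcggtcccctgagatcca
Kcna6, chr4:161262303-161262602, minus strand: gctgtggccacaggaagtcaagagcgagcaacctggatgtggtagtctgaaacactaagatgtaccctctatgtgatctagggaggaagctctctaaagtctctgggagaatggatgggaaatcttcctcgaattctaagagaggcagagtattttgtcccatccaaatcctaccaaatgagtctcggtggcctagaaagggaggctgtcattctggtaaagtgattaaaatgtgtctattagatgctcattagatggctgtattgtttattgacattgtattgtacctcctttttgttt
Kcnh8, chr9:5742433-5742732, plus strand: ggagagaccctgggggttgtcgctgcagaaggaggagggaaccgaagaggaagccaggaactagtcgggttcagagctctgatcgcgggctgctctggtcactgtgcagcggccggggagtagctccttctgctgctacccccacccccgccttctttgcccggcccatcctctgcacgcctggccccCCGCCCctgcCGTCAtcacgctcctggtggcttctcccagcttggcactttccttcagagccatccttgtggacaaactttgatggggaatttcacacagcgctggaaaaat
Kcna6 and the first entry of Kcnip1 hold neither motif, the second entry of Kcnip1 holds a GC box that starts 230 bases before the start site, and Kcnh8 holds a GC box and a half-site, 62 and 52 bases before it. Over the 28 windows, 17 held a GC box, or 60.7%, beside 33.06% of all 33469 windows, and 4 held the half-site, or 14.3%, beside 21.2%. The half-site windows were those of Kcnab1, Kcnh8, Kcnip3 and Kcnq5. None held the full element TGACGTCA (1.83% of all windows), the AP-1 site TGANTCA (7.33%), the EGR site GCGTGGGCG (0.54%) or TATAAA (14.22%). CpG pairs ran from 1 to 48 per Kv window, with a median of 21, beside 7 over all windows. Kcna6 had 3 and Kcnh8 14. A match is a description of the letters and no statement about a factor.

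Among the Kv4 genes, whose channels carry the fast A-type current of dendrites, and the KChIPs that bind them, the second TTX stood beside lower values of Kcnip1 and Kcnip4. Kcnip1, which encodes a KChIP found largely in interneurons, had 191 and 204 CPM in TT libraries and 163 and 197 CPM in HT libraries, against 214 and 222 CPM in TH libraries and 224 and 246 CPM in HH libraries. Each library given the second TTX lay below each library given vehicle. Only 2 Kv genes did this, the other being Kcna6, beside 1.64% of all genes, and no Kv gene did the opposite (2.69%). That separation entails that these 2 were also lower without overlap within each history. No further Kv gene was (3.12% of all genes), and higher in each was no Kv gene (5.09%). The averaged log2 change of Kcnip1 was -0.26 ± 0.09 (log2 fold change ± SE, n = 2 libraries per group, also below), with an edgeR adjusted p of 0.537, and it stayed between -0.34 and -0.20 when any 1 library was left out. By history it stood at -0.14 ± 0.13 in TT against TH and -0.39 ± 0.13 in HT against HH, and the interaction, 0.25 ± 0.19, did not pass (edgeR adjusted p = 1.00). That interaction was 0.12 without HT replicate 1 and 0.39 without HT replicate 2. Inhibitory neuron markers, all 8 of them detected, had summed levels of 573 to 680 CPM in the libraries given the second TTX, against 670 to 1115 CPM in those given vehicle. The 1115 CPM belonged to HH replicate 1, and the other libraries given vehicle had 670 to 871 CPM. The markers differed among themselves. In the averaged second TTX, Gad1, Gad2, Sst and Npy had log2 changes from -0.758 to -0.435. Slc32a1, Dlx1 and Lhx6 lay from -0.0492 to 0.0057, and Pvalb was too low to be tested. The part of inhibitory neurons in the Kcnip1 values was not tested. In GRCr8, Kcnip1 overlaps Kcnmb1, which had 13 counts in all beside 6667 for Kcnip1.

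Kcnip4, a KChIP known for slowing the inactivation of Kv4 channels, had 1453 and 1209 CPM in TT libraries and 1430 and 1326 CPM in HT libraries, against 1414 and 1604 CPM in TH libraries and 2267 and 1750 CPM in HH libraries. The HH libraries were highest, and those of TT and TH overlapped. Its averaged second-TTX change was -0.36 ± 0.13 (edgeR adjusted p = 0.551), and it stood at -0.54 ± 0.18 in HT against HH and at -0.41 ± 0.18 in TH against HH. The interaction was 0.36 ± 0.26 (edgeR adjusted p = 1.00). Without HH replicate 1 the Kcnip4 values were -0.34 in HT against HH, -0.21 in TH against HH and 0.15 for the interaction, which was 0.22 without TT replicate 1. Kcnip2 ranged from 26.2 to 38.6 CPM and Kcnip3, also known as the repressor DREAM, from 44.7 to 73.0 CPM, both with their lowest value in HH replicate 1, against 38.3 and 69.6 CPM in HH replicate 2.

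Of the Kv4 pore genes, Kcnd2, which encodes the main dendritic subunit of pyramidal cells, had 510 and 476 CPM in TT libraries, 508 and 467 CPM in HT libraries, 425 and 566 CPM in TH libraries and 822 and 500 CPM in HH libraries. The 7 libraries other than HH replicate 1 lay within 425 to 566 CPM. It stood at -0.44 ± 0.22 in HT against HH and -0.41 ± 0.22 in TH against HH, and without HH replicate 1 at -0.031 and -0.008. Without HH replicate 2 these were -0.76 and -0.73, and TH against HH was -0.22 without TH replicate 1 and -0.64 without TH replicate 2. Kcnd3 ranged from 311 to 431 CPM and Kcnd1 from 7.23 to 11.9 CPM. All 3 Kv4 genes lay below 0 in the averaged second TTX (median -0.22), also without HH replicate 1 (median -0.20). By history, their median was -0.24 in HT against HH and -0.07 in TT against TH.

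Among the Kv1 genes, which set the threshold and the repolarization of axons, Kcna6 gave the most even picture. It had 43.6 and 40.0 CPM in TT libraries and 47.1 and 42.4 CPM in HT libraries, against 51.1 and 48.6 CPM in TH libraries and 51.5 and 47.7 CPM in HH libraries. The 4 libraries given the second TTX were the 4 lowest, within and across histories. The margin was narrow, with 47.1 CPM in HT replicate 1 and 47.7 CPM in HH replicate 2. The averaged change was -0.20 ± 0.10 (edgeR adjusted p = 0.750), between -0.24 and -0.17 with any 1 library left out, and TT against TH stood at -0.25 ± 0.14. Kcna4, an A-type Kv1 subunit, had 32.1 and 16.3 CPM in TT libraries and 30.3 and 35.1 CPM in HT libraries, and its TT against HT change of -0.45 ± 0.26 was -0.019 without TT replicate 2 and -1.003 without TT replicate 1. Kcna1 ranged from 4.45 to 8.56 CPM, Kcna2 from 8.90 to 12.8 CPM and Kcna3 from 6.48 to 10.9 CPM. Kcna7, known mainly from muscle, had 4.98 and 4.38 CPM in TT libraries and 5.80 and 6.88 CPM in TH libraries, against 2.59 and 4.21 CPM in HT libraries and 2.78 and 4.96 CPM in HH libraries. It was the only Kv gene higher without overlap in both history comparisons, beside 4.23% of all genes, at a summed count of 150. Its averaged history change was 0.58 ± 0.27 (edgeR adjusted p = 0.814), 0.41 without HH replicate 1 and 0.26 with both HH replicate 1 and HT replicate 1 left out.

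The Kv beta gene Kcnab1, whose protein can speed the inactivation of Kv1 channels, had 391 and 340 CPM in TT libraries, 470 and 342 CPM in HT libraries, 313 and 370 CPM in TH libraries and 548 and 325 CPM in HH libraries. Replicate 1 was higher in HT and HH, and the groups overlapped. Kcnab2, which helps carry Kv1 channels to axons, stayed within 89.6 to 110 CPM. The averaged second-TTX changes of both Kv beta genes lay just below 0, with a median of -0.016, and above 0 without HH replicate 1, with a median of 0.12.

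The Kv2 gene Kcnb2, which encodes a delayed rectifier subunit of the cell body, had 469 and 488 CPM in TT libraries and 643 and 453 CPM in HT libraries, against 558 and 587 CPM in TH libraries and 962 and 559 CPM in HH libraries. TT libraries lay below TH libraries, and HT and HH libraries overlapped. Its averaged second-TTX change of -0.36 ± 0.17 (edgeR adjusted p = 0.747) stood at -0.14 without HH replicate 1.

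Kv3 channels close fast and let neurons fire at high rates. Kcnc2, expressed largely in interneurons, had 133 and 135 CPM in TT libraries, 201 and 109 CPM in HT libraries, 165 and 137 CPM in TH libraries and 368 and 165 CPM in HH libraries. HH replicate 1 was 2.23 times as high as HH replicate 2. The HT against HH change of -0.77 ± 0.41 stood at -0.080 without HH replicate 1, -1.25 without HH replicate 2, -1.28 without HT replicate 1 and -0.41 without HT replicate 2. Kcnc1 stayed within 119 to 150 CPM. Kcnc4 differed without overlap between the histories where the second treatment was TTX. It had 8.47 and 8.17 CPM in TT libraries, against 15.8 and 14.6 CPM in HT libraries, a log2 change of -0.87 ± 0.25 (edgeR adjusted p = 1.00). TH libraries had 11.3 and 7.28 CPM and HH libraries 11.1 and 13.0 CPM, and these overlapped, with a log2 change also below 0. The interaction was -0.46 ± 0.37, between -0.77 and -0.14 with any 1 library left out. A history difference particular to the second TTX is therefore not shown. Averaged, the history change was -0.64 ± 0.18 (edgeR adjusted p = 0.814), between -0.80 and -0.48 with any 1 library left out, at a summed count of 351.

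Among the Kv7 genes behind the M current, Kcnq3 had 730 and 573 CPM in TT libraries and 577 and 751 CPM in TH libraries, against 913 and 707 CPM in HT libraries and 989 and 712 CPM in HH libraries. Kcnq5 had 537 and 451 CPM in TT libraries and 418 and 526 CPM in TH libraries, against 846 and 466 CPM in HT libraries and 1081 and 459 CPM in HH libraries. In both, the high values belonged to replicate 1 of HT and HH, and the second replicates of those groups lay among the TTX-history libraries. The averaged history change of Kcnq3 was -0.34 ± 0.15 (edgeR adjusted p = 0.814), -0.21 without HH replicate 1 and -0.11 with both HH replicate 1 and HT replicate 1 left out. Kcnq1, known from heart and epithelia, ranged from 2.07 to 4.97 CPM.

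The Kv10 to Kv12 genes (the EAG, ERG and ELK families) had 6 of 7 below 0 in the averaged second TTX, with a median of -0.24, and 5 of 7 without HH replicate 1, with a median of -0.16. Kcnh1, an EAG pore gene, had 260 and 216 CPM in TT libraries and 281 and 212 CPM in HT libraries, against 303 and 231 CPM in TH libraries and 376 and 293 CPM in HH libraries. HT lay below HH without overlap, and TT and TH overlapped. The averaged change was -0.30 ± 0.14 (edgeR adjusted p = 0.718), with HT against HH at -0.44 ± 0.19. HT against HH was -0.24 without HH replicate 1, -0.25 without HT replicate 2 and -0.66 without HT replicate 1. Kcnh5, the other EAG gene, had 209 and 205 CPM in TT libraries and 303 and 202 CPM in HT libraries, against 243 and 262 CPM in TH libraries and 505 and 259 CPM in HH libraries. Its averaged second-TTX change of -0.44 ± 0.21 stood at -0.16 without HH replicate 1.

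In the ELK family, Kcnh8 was the only Kv gene whose 4 libraries with a TTX history lay below the 4 without one, beside 1.17% of all genes, and none lay above (1.73%). It had 28.2 and 30.1 CPM in TT libraries and 28.2 and 35.2 CPM in TH libraries, against 39.1 and 46.0 CPM in HT libraries and 70.6 and 38.9 CPM in HH libraries. The nearest values were 35.2 CPM in TH replicate 2 and 38.9 CPM in HH replicate 2. The averaged history change was -0.66 ± 0.18 (edgeR adjusted p = 0.814), with TT against HT at -0.54 ± 0.26 and TH against HH at -0.77 ± 0.25. The size leaned on HH replicate 1, without which the average was -0.42 and TH against HH -0.28. With HH replicate 2 left out, so that HH replicate 1 stands alone and is assumed to vary like the other groups, Kcnh8 and Kcnh5 passed in TH against HH (edgeR adjusted p = 0.0154 and 0.0292) and in the averaged history (edgeR adjusted p = 0.0143 and 0.038). In that fit, 2 of 40 Kv genes and 121 of 11646 genes (1.04%) passed in TH against HH, and 2 of 40 and 104 (0.893%) in the averaged history.

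Kcnh3, another ELK gene, ranged from 1948 to 3014 CPM, and its averaged second-TTX change was -0.25 ± 0.14 (edgeR adjusted p = 0.774), and -0.12 without TH replicate 1. In GRCr8, Kcnh3 overlaps Mcrs1, which had 731 counts in all beside 76363 for Kcnh3, and an snRNA gene that the count table lacks. The part of these genes in the Kcnh3 values was not tested. Kcnh4, the remaining ELK gene, had 10.5 and 10.6 CPM in TT libraries, against 12.2 and 14.2 CPM in TH libraries, and 12.7 and 13.5 CPM in HT libraries, against 8.02 and 9.65 CPM in HH libraries. The second TTX thus stood beside lower values in cultures with a TTX history and higher values in cultures without one, with no overlap in either. TT against TH stood at -0.33 ± 0.22 and HT against HH at 0.56 ± 0.23. The HH libraries were the lowest of all, and TH also lay above HH without overlap, at 0.57 ± 0.23. The interaction was -0.89 ± 0.32 (edgeR adjusted p = 1.00) and lay between -1.03 and -0.77 with any 1 library left out. HT above HH with TT below TH, both without overlap, held for 1 Kv gene, beside 1.66% of all genes, and the reverse for none (1.35%). Of the ERG genes, Kcnh7 ranged from 296 to 696 CPM, highest in HH replicate 1, and Kcnh2, the ERG gene known from cardiac rhythm, from 14.7 to 22.3 CPM.

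The 8 modifier subunit genes all lay below 0 in the averaged history, with a median of -0.22, and 7 of 8 did without HH replicate 1 (median -0.26) and 6 of 8 with both HH replicate 1 and HT replicate 1 left out (median -0.092). Kcnv1 had 6.23 and 4.78 CPM in TT libraries and 7.73 and 6.07 CPM in TH libraries, against 19.7 and 6.74 CPM in HT libraries and 16.7 and 9.91 CPM in HH libraries. TT lay below HT and TH below HH without overlap, while HT replicate 2 lay below TH replicate 1. Only Kcnv1 and Kcnh8 were lower without overlap in both history comparisons, beside 2.68% of all genes. The averaged change of Kcnv1 was -1.11 ± 0.34 (edgeR adjusted p = 0.814), -0.62 without HT replicate 1 and -0.42 with both HH replicate 1 and HT replicate 1 left out. Kcns3 had 16.4 and 13.7 CPM in TT libraries and 16.6 and 13.6 CPM in TH libraries, against 46.3 and 12.6 CPM in HT libraries and 48.1 and 18.5 CPM in HH libraries. It was high in 2 libraries and even in the other 6. Its averaged history change of -1.06 ± 0.47 (edgeR adjusted p = 0.814) stood at -0.65 without HH replicate 1, -0.44 without HT replicate 1 and -0.030 without both. Kcnf1 had 7.22 and 8.76 CPM in TT libraries and 14.4 and 7.89 CPM in TH libraries, against 15.5 and 9.83 CPM in HT libraries and 20.0 and 13.6 CPM in HH libraries, with an averaged history change of -0.64 ± 0.24 (edgeR adjusted p = 0.814). Kcng1 was highest in HT replicate 1, at 29.0 CPM, with the other libraries between 13.7 and 18.8 CPM, and Kcng2 in HH replicate 1, at 19.1 CPM, with the others between 6.74 and 12.2 CPM. Kcng3 ranged from 21.1 to 31.0 CPM, Kcng4 from 67.3 to 84.9 CPM and Kcns2 from 1.62 to 4.17 CPM.

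**Figure D4:**
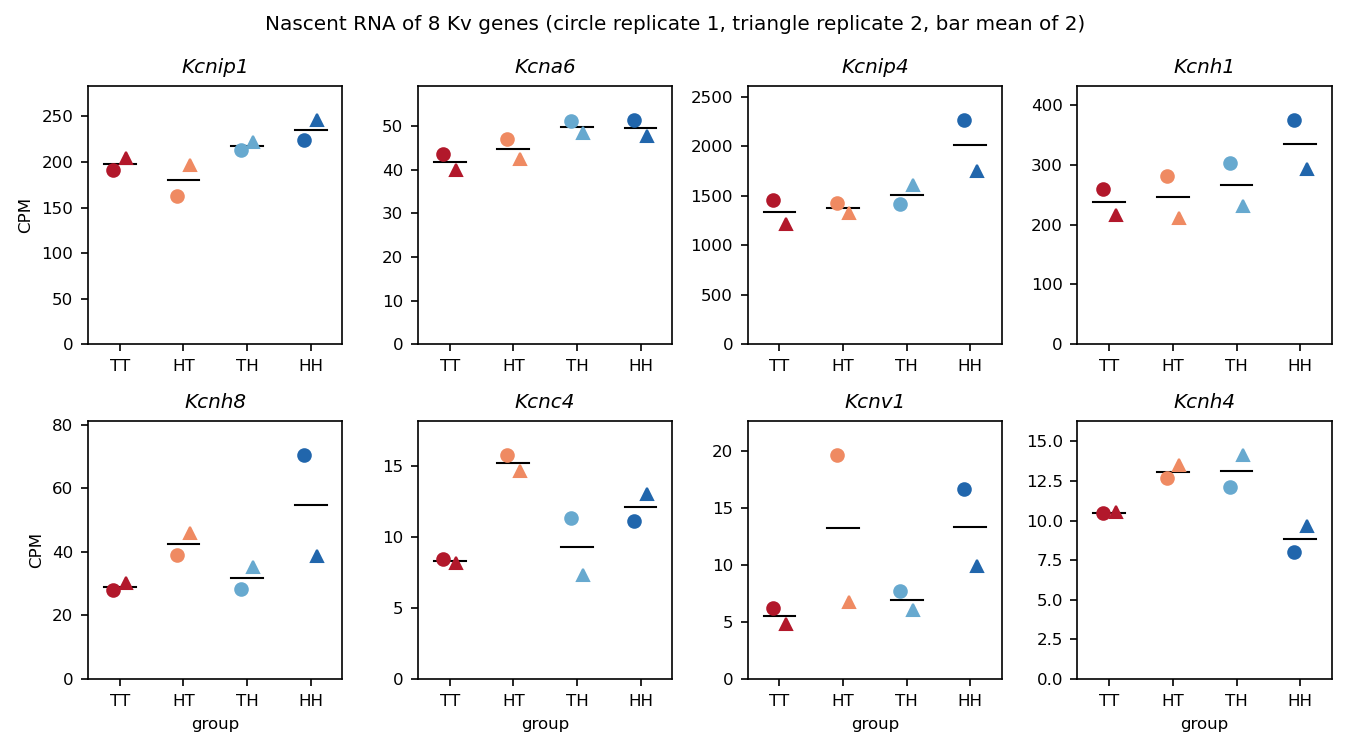
CPM (y axis, from 0) of 8 Kv genes in each group (x axis), with a circle for replicate 1, a triangle for replicate 2 and a bar for their mean. Kcnip1 and Kcna6 are lower in each of the 4 TT and HT libraries than in each TH and HH library. Kcnh8 is lower in the TT and TH libraries than in the HT and HH libraries. Kcnh4 differs in opposite directions between the 2 histories, and its HH libraries are the lowest.

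The change with the second TTX in TT against TH and that in HT against HH, which share no library, had a Pearson's r of -0.059 across the 40 Kv genes, beside 0.25 across all genes tested, and 23 of 40 had the same sign (57.6% of all genes). The changes with history, TT against HT set against TH against HH, correlated at r = 0.60, beside 0.28 over all genes, and 27 of 40 had the same sign (57.9% of all genes). With HH replicate 1 and HT replicate 1 both left out this was 0.20, and 0.15 over all genes, and without HT replicate 1 alone it was -0.051, and 0.049 over all genes. Genes of 1 library share its depth and its cells, so these are descriptions.

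**Figure D5:**
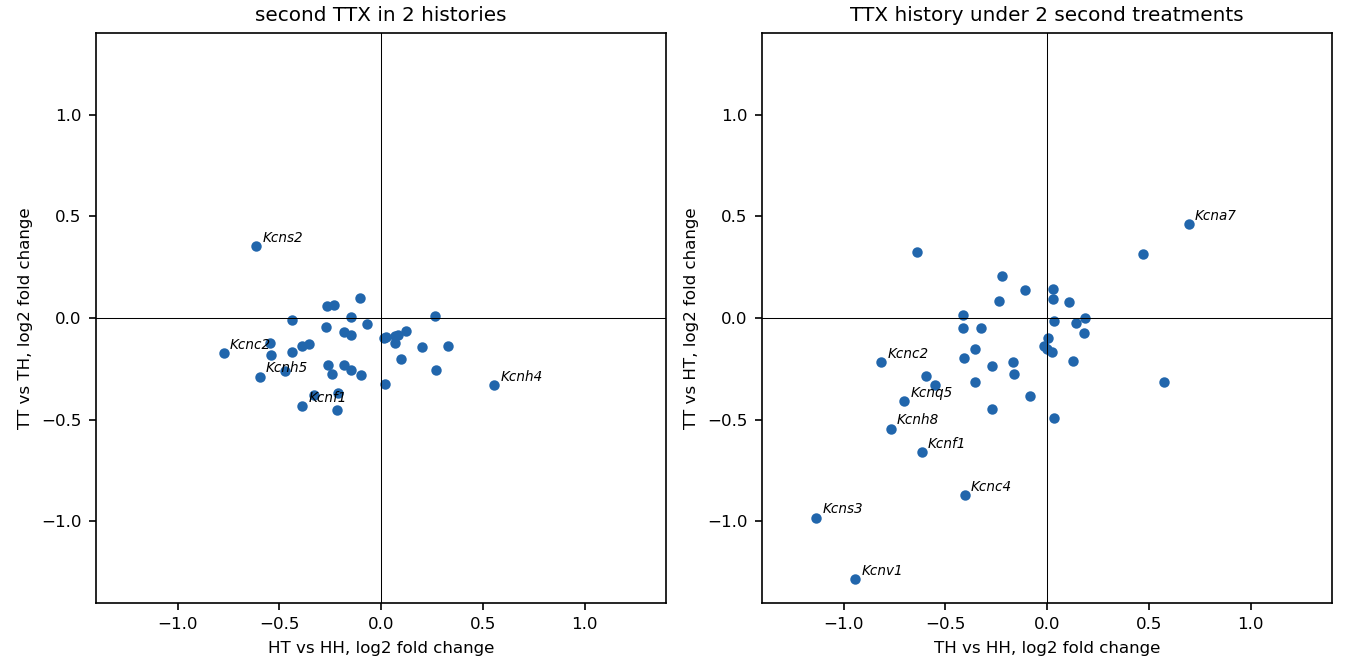
Log2 fold changes of the 40 Kv genes, each point a gene. The left panel sets the second TTX in cultures with a TTX history (y axis) against that in cultures without (x axis), and the right panel sets the TTX history under TTX (y axis) against that under vehicle (x axis). The right panel stretches to the lower left with Kcns3 and Kcnv1 (r = 0.60), and the left panel has r = -0.059.

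A list of 29 further genes known to bind, place or regulate Kv channels had 27 in the table and 24 tested, and Cntnap2 and Adam22 were not analysed here. None passed in any comparison, and 14 of 24 lay below 0 in the averaged second TTX, with a median of -0.034. The partners that differed most relative to their error were Flna, an actin crosslinker that binds Kv4 (0.44 ± 0.12, edgeR adjusted p = 0.345), the scaffold gene Dlg2 (-0.34 ± 0.18), the Kv4 subunit gene Dpp6 (-0.22 ± 0.12) and Kcne5 (0.58 ± 0.37). Flna had 111 and 102 CPM in TT libraries and 101 and 145 CPM in HT libraries, against 82.0 and 87.2 CPM in TH libraries and 75.9 and 90.8 CPM in HH libraries. All 4 libraries given the second TTX were above the 4 given vehicle, as they were for 2.69% of all genes. Flna is also expressed in glia and dividing cells, and the summed level of 6 of 6 dividing cell markers was 150 to 193 CPM in the libraries given the second TTX, against 107 to 127 CPM in those given vehicle. That of 11 of 11 oligodendrocyte lineage markers was 700 to 849 CPM in the libraries given the second TTX, against 497 to 672 CPM in those given vehicle. Sums of other glial markers overlapped. Astrocyte markers had 1581 to 2007 CPM with the second TTX and 1331 to 1732 CPM with vehicle. Microglia markers had 9.31 to 14.0 CPM and 10.2 to 12.5 CPM. The part of these cell types in the Flna and Kv values was not tested.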

How the data were processed

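The authors deposited whole-number read counts per gene symbol, not normalized. The tools named in the submitters' processing notes are FastQC, Bowtie2, TopHat2 and featureCounts, with genome build rn6. For their versions, the annotation, strand and intron settings and the choice of genes, the entry is: not given in the sources used here. Of the columns, 2 matched no sample label and were not used. Reads of overlapping genes may not be told apart. In GRCr8, 17 of the 40 Kv genes overlap another annotated gene, and 4 overlap a gene of the table: Kcnab2 (Nphp4), Kcnh3 (Mcrs1), Kcnh7 (Gca) and Kcnip1 (Kcnmb1). Kcnab1 and Kcnh3 each overlap an snRNA gene that has no row in the count table.

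Counts were fitted in R 4.3.3 with edgeR 4.0.16 over the whole table (expression filter, TMM scaling, 1 model of 4 group means with 4 residual degrees of freedom, robust quasi-likelihood test, Benjamini-Hochberg adjustment). The SE was worked out from each log2 change and its F statistic and rests on the spread within all 4 groups. CPM uses the TMM-scaled totals. Replicates of each group differed by more than sampling noise (chi-square over degrees of freedom from 4.00 to 11.1). DESeq2 1.42.0, limma 3.58.1 (voom), other scaling and filters, a replicate block and leaving out libraries were alternatives. The fits were also run on simulated counts, drawn independently for each library. Such counts hold no deviation shared between libraries, so that run cannot show how the fits handle HH replicate 1 and HT replicate 1. Figures used matplotlib 3.10.9.

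The Kv genes, lists and tests were chosen with earlier results of these data known. Log2 changes are given for the 8 Kv genes of smallest p in each comparison, and partner genes for the 4 of smallest p. CPM may be given for any Kv gene. Single values of some Kv genes are not reported here, though counts and medians over the Kv genes include them. Depth intervals were not needed, as no share of counts is reported. The labels give no batch or date.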

Additional observations from a re-analysis of the deposited data

Results flagged for a closer look

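Kcnh4 had opposite differences in cultures with and without a TTX history, with no overlap of libraries: TT lay below TH, and HT lay above HH. This pattern held for 1 of 40 Kv genes, beside 1.66% of all genes. The interaction was -0.89 on the log2 scale and did not pass (edgeR adjusted p = 1.00). TT against TH stood at -0.33 ± 0.22. The HH libraries were the lowest of all, and TH also lay above HH without overlap. Kcnh4 counts summed to 369 over all libraries. Groups of 2 libraries are too small for a check for a single outlying library.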

How the results depend on the processing

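The counts of Kv genes below 0 stayed within 1.5 times the reported count under each alternative run. That margin is too wide to tell whether a shift holds. It takes in 21 of 40 in TT against HT without HT replicate 1 (49.1% of all genes), against 29 with all libraries. No Kv gene was called under other scaling (DESeq2 size factors), no low-count filter, DESeq2, limma-voom, fits of only the groups compared, or a minimum of 200 counts. Leaving out 1 library gave 0 to 2 called Kv genes in TH against HH and in the averaged history (Kcnh5 and Kcnh8 without HH replicate 2, where fewer HH samples remain), and 0 in the other 5 comparisons. Below 0 were, over the libraries left out, 24 to 28 genes in HT against HH, 26 to 39 in TT against TH, 25 to 29 in TH against HH, 21 to 30 in TT against HT, 29 to 34 in the averaged second TTX, 27 to 32 in the averaged history and 17 to 27 in the interaction. Some log2 changes turned sign: over the libraries left out, TT against TH ran from -0.83 to 0.022 for Kcnf1 and -0.45 to 0.021 for Kcnh3 (turning without TH replicate 1), TT against HT from -0.91 to 0.13 and the interaction from -0.94 to 0.10 for Kcng1 (without HT replicate 1). Without HH replicate 1 and HT replicate 1 together, Kcng1 stood at 0.13 and 0.098 in these and the averaged history of Kcnh5 at 0.003. The cause was not tested. Of the other alternatives, 345 gene values kept their sign and side of the threshold. Over all genes, where 0 were called, the averaged second TTX had 11 with DESeq2 and 16 with no low-count filter, and leaving out HH replicate 2 gave 39 in HT against HH, 121 in TH against HH and 104 in the averaged history. With the replicate number as a block, 0 Kv genes were called and 34 of 40 lay below 0 in the averaged second TTX. The labels do not say whether the replicate numbers pair samples. Deviations of same-numbered libraries correlated at 0.447 between HT and HH and from -0.0658 to 0.0867 between the other pairs of groups. What HT and HH share by number was not tested. Low counts limit Kcns2 and Kcnq1 most.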
